A study of Homo sapiens with 4 samples.

Results

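The subject here is the set of ChIP-seq peaks assigned to JUNB, BACH2 and ATF3, genes that encode AP-1 and related basic leucine zipper (bZIP) transcription factors. Every peak whose nearest annotated gene was one of these was taken, which gave 3 peaks of the 1386 in the list, 1 for each gene. The genes had been picked with the scores of this list known, so their scores, positions and neighbours are given as descriptions, with no test.

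The study mapped a FLAG-tagged copy of ZNF416, a KRAB zinc finger protein, on the genome of IMR90 cells, a cultured line of human lung fibroblasts, and asked about its part in the mechanical activation of fibroblasts. Per the labels, the tagged protein was expressed stably from a lentivirus, the cells were selected with puromycin and received no treatment, and chromatin was crosslinked for 10 minutes. The ZNF416-FLAG group held 2 ChIP libraries, pulled down with anti-FLAG beads. The input group held 2 libraries of chromatin from the same kind of cells without antibody. All 4 libraries enter only through the authors' single peak list on the hg19 build, which gives neither the replicate spread of a value nor the depth of a library. No FLAG pull-down of untagged cells is named in the labels, so binding by ZNF416 and other signal in a FLAG pull-down cannot be told apart. A peak list holds no expression values, and the fibroblast identity of the cells was not tested.

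AP-1 is a dimer of bZIP proteins of the JUN and FOS families, sometimes with ATF or BATF partners, that binds the short site TGANTCA and related cyclic AMP response elements (CRE, TGACGTCA). JUNB is a JUN subunit that growth factors and serum induce within minutes. ATF3 is a stress-induced ATF factor that can pair with JUN proteins, and BACH2 pairs with small MAF proteins and acts mainly as a repressor, best known from lymphocytes. In fibroblasts, AP-1 factors act at many genes that respond to growth factors, matrix and mechanical load.

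The 3 peaks had scores far apart in the list. The score is a whole number per peak as deposited by the authors, with no stated scale. It ran from 13 to 355 with a median of 62. JUNB scored 337 and stood at rank 2, with 1 peak above it. BACH2 scored 310 and stood at rank 6, with 5 peaks above it. ATF3 scored 38 and shared its score with 27 other peaks, at ranks 1088 to 1115, and 271 peaks scored lower. JUNB and BACH2 thus lay far above the median score and ATF3 below it. On assembled chromosomes alone, which carry 1080 of the peaks, JUNB and BACH2 kept ranks 2 and 6 and ATF3 stood at rank 835.

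**Figure D1:**
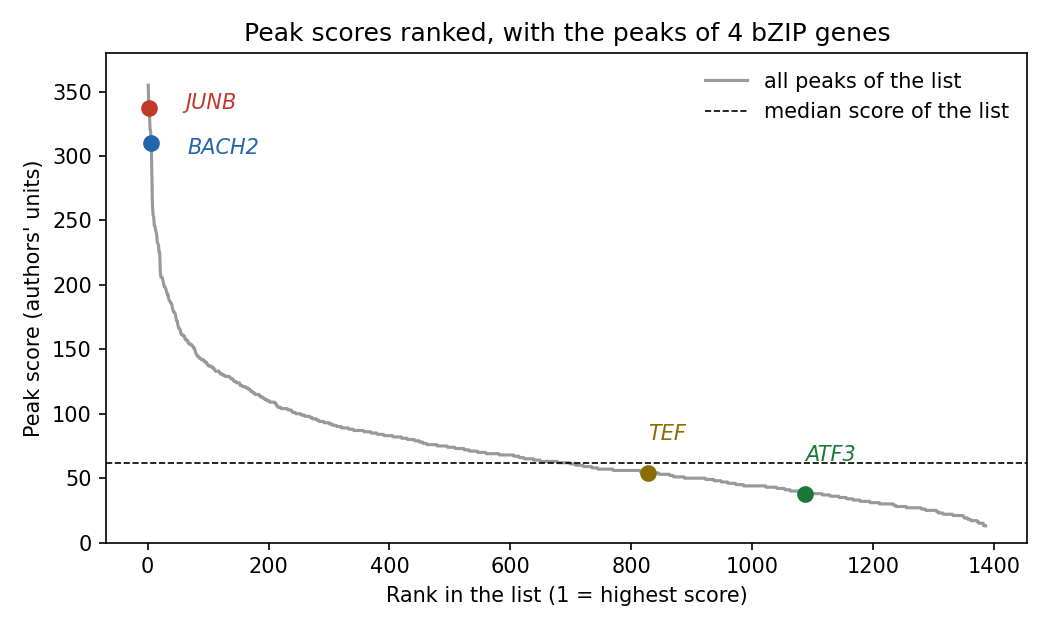
Score of each of the 1386 peaks (vertical axis, authors' units) against its rank in the list (horizontal axis), with the peaks of JUNB, BACH2, ATF3 and TEF as coloured points and the median score of 62 as a dashed line. JUNB (337) and BACH2 (310) lie on the steep left end of the curve, and TEF (54) and ATF3 (38) lie below the median.

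At JUNB (gene ID 3726, ENSG00000171223), the peak covered chromosome 19 from 12902613 to 12903626 on hg19. It was 1014 bp wide, 6.99 times the median width of 145 bp. Only 2 peaks on assembled chromosomes reached 1000 bp, the peak of EEF1A1, a translation elongation factor gene, at 1292 bp and that of JUNB. The list held 4 more such peaks on unplaced or unlocalised contigs, with JUNB at rank 6 by width over all peaks. The authors' annotation put the centre in exon 1 of 1 of NM_002229, 819 bp downstream of the transcription start site (TSS). JUNB is an intronless gene, and the peak spanned about 313 to 1326 bp downstream of the start, so the peak lay inside the transcribed gene and its edge nearest the promoter was 313 bp from the TSS. The RefSeq gene model (GRCh38.p14) is 1830 bp long.

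JUNB had the highest score of the 33 peaks of the exon class on assembled chromosomes, whose median was 62. The exon peaks next to it in score were those of ABCB6, a transporter gene (231), MED11, a Mediator subunit gene (155), and GSTK1, a glutathione transferase gene (140). Their widths were 148, 134 and 175 bp, so none was as broad as the JUNB peak. Peaks in exon 1 of 1 numbered 6, and besides JUNB these were ATOH7 (score 136), AIRN (51), EXOSC6 (50), EID2 (37) and INSM2 (27). They were named after their scores were seen. The JUNB score was also the highest of the 333 peaks within 1 kb of a TSS, a group with a median of 61, and of the 76 peaks of chromosome 19, with a median of 63.5. In the whole list it lay between SLC6A3, the dopamine transporter gene (355), and EEF1A1 (334).

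The peak at BACH2 (gene ID 60468, ENSG00000112182) covered chromosome 6 from 90993798 to 90994067 on hg19. It was 270 bp wide, 1.86 times the median and at rank 180 by width. Its centre lay in intron 1 of 8 of NM_021813, 12630 bp downstream of the TSS. BACH2 thus carried a score close to that of JUNB on a peak far narrower, at 270 against 1014 bp. Among the 452 intron peaks on assembled chromosomes, with a median score of 61, it stood at rank 3. The intron peaks nearest to it in score were EEF1A1 (334), the peak assigned to KCTD15, a gene of the BTB domain family (285), and SLC6A3 (355). It was also at rank 3 of the 463 peaks over 10 and up to 100 kb from a TSS, a group with a median of 57. First introns held 216 peaks with a median score of 57, and BACH2 was there at rank 2, behind EEF1A1 (334). It was at rank 2 of the 61 peaks on chromosome 6, after EEF1A1. In the whole list it lay between ARID5B, a DNA-binding protein gene (319), and KCTD15 (285).

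ATF3 (gene ID 467, ENSG00000162772) was assigned a peak on chromosome 1 from 212730027 to 212730199 on hg19. The peak was 173 bp wide, 1.19 times the median, and its centre lay 8563 bp upstream of the nearest ATF3 TSS, that of NM_001030287. Unlike the peaks of JUNB and BACH2, it did not lie in the gene it was assigned to. The annotation put it at the transcription termination site (TTS) of NR_125985, which RefSeq lists as the long non-coding RNA LINC01740. It is an ATF3 peak by nearest TSS alone, and whether it bears on ATF3 or on the non-coding RNA was not tested. Peaks of the TTS class numbered 26 on assembled chromosomes, with scores from 21 to 145 and a median of 67.5, and ATF3 stood at rank 20 of them. The TTS peaks nearest to it in score were assigned to PSD (40), ZNF143-AS1 (36) and ELAVL3 (33). Of the 276 peaks over 1 and up to 10 kb from a TSS, ATF3 was at rank 223, and of the 111 peaks of chromosome 1 at rank 84. The scores directly above and below it, 39 and 37, were held by 11 and 13 peaks, so small changes of score would move its rank by many places.

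**Figure D2:**
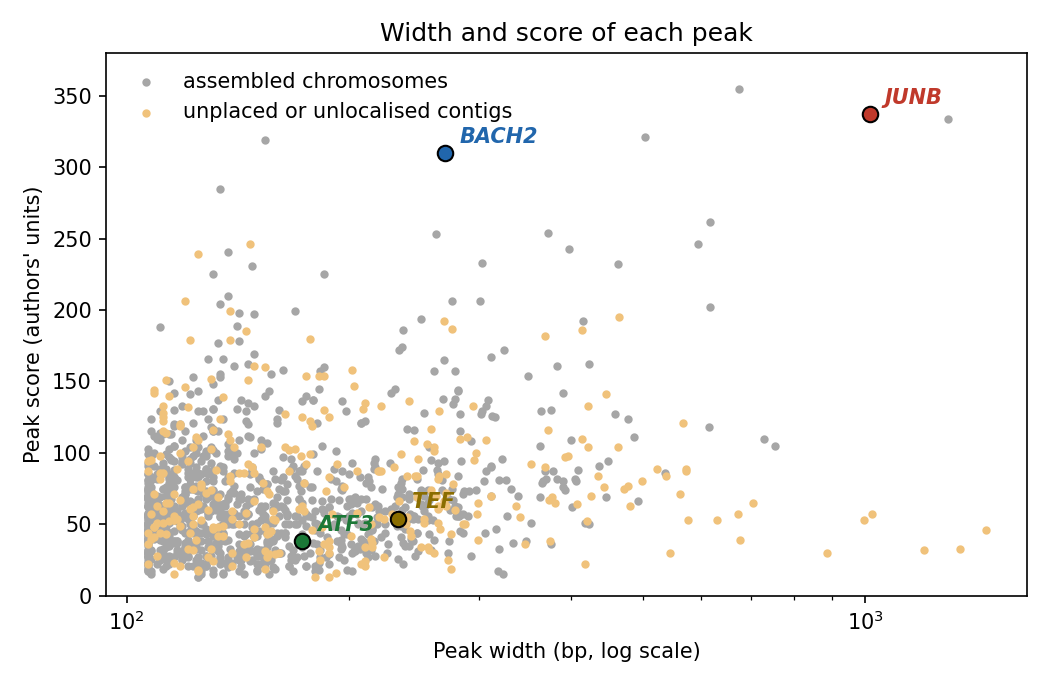
Score (vertical axis, authors' units) against width (horizontal axis, bp, log scale) of each peak, grey on assembled chromosomes and orange on contigs, with the named bZIP genes in colour. JUNB combines a score of 337 with a width of 1014 bp, BACH2 has a score of 310 at 270 bp, and ATF3 lies within the bulk of the list at 38 and 173 bp.

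The centres of all 3 peaks lay on sequence that the detailed annotation gives as exon, intron or TTS, and none was annotated to a repeat or a CpG island. On assembled chromosomes, 19.4% of peaks were annotated to a repeat at the centre and 6.02% to a CpG island. The detailed annotation names a single feature per peak. A repeat or CpG island under a peak labelled exon or TTS may thus go unnamed, and its absence there was not tested. Peaks carry running numbers along the genome, and those directly before and after each of the 3 peaks were all present in the list. Of the 10 numbers on either side, 0 were missing around JUNB, 0 around ATF3 and 4 around BACH2. Per the file headers blacklisted regions had been removed, and what the 4 missing peaks were is not given in the sources used here.

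Few other peaks lay nearby. Within 100 kb, centre to centre, JUNB had 1 neighbouring peak and BACH2 and ATF3 had 0. On assembled chromosomes, 26.6% of the 1080 peaks had a neighbour within that distance, so isolated peaks were the more common kind in this list. The neighbour of JUNB lay 40.4 kb away toward higher coordinates, from 12943415 to 12943538, with a score of 90 and a width of 124 bp. It was centred on a CpG island in intron 2 of 6 of RTBDN, a gene for a retinal riboflavin-binding protein, 1914 bp downstream of the nearest RTBDN TSS. On the other side of JUNB the next peak was 651 kb away, at ZNF20, a zinc finger gene (score 31).

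BACH2 stood in a wide stretch without peaks. The next peaks lay 646 kb toward lower coordinates, at LYRM2 (score 56), and 15967 kb toward higher coordinates, at CRYBG1 (score 46). For ATF3 they lay 402 kb away, nearest to MIR3122 (score 40), and 1936 kb away, at PTPN14, a tyrosine phosphatase gene (score 28). The median distance to the nearest other peak was 401 kb over assembled chromosomes. The distance at ATF3 was close to that median, that at BACH2 was exceeded by 39.4% of peaks, and that at JUNB by 80.9%.

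**Figure D3:**
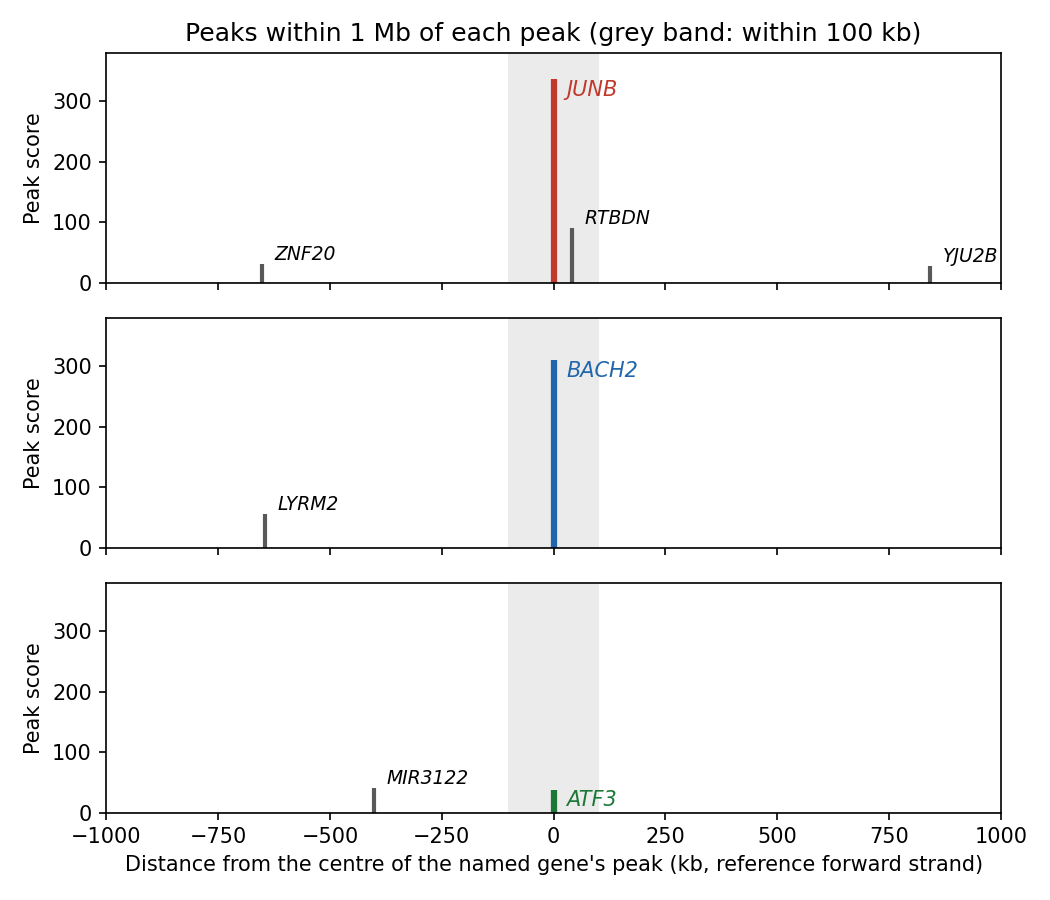
Peaks within 1 Mb of the JUNB, BACH2 and ATF3 peaks, with distance from the peak centre in kb on the horizontal axis and score on the vertical axis, and each peak labelled by its nearest gene. The grey band marks 100 kb on either side, and it holds 1 other peak, at RTBDN beside JUNB (score 90).

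In the order of protein-coding genes in RefSeq (GRCh38.p14), the genes on either side of JUNB are HOOK2 and PRDX2, a peroxiredoxin gene. Those beside BACH2 are GJA10 and MAP3K7, which encodes the kinase TAK1 upstream of JNK and AP-1. Those beside ATF3 are NENF and GARIN4, with BATF3, a gene for another bZIP factor and AP-1 partner, as the next after GARIN4. None of these genes was the nearest gene of any peak, which holds for most genes, since 3.66% of all protein-coding genes were.

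Other JUN, FOS and BACH family names did not occur among the nearest genes. JUN, JUND, FOS, FOSB, FOSL1, FOSL2 and BACH1 had 0 peaks by gene name, by gene alias and by the transcript named in the annotation. A search by gene identifier gave the same result, and the 2 gene names that a spreadsheet had turned into dates belonged to MARCHF4 and MARCHF9. In the subgroups of the bZIP family, 1 of 7 JUN and FOS genes was nearest to a peak (JUNB), 1 of 5 in the group of ATF3, JDP2 and the BATF genes (ATF3), and 1 of 6 BACH and CNC genes (BACH2). Among the C/EBP and PAR genes it was 1 of 10, TEF, which encodes a PAR factor tied to circadian output. None of 17 ATF and CREB genes and none of 7 MAF genes was nearest to a peak. The exact Clopper-Pearson upper limits of these shares were 19.5% for the ATF and CREB genes and 41.0% for the MAF genes. The background was 3.66% of all protein-coding genes, and the exact interval of every subgroup includes it. JUNB, ATF3 and BACH2 had also been picked from this list, so the contrast between subgroups is no result.

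Over the whole family, 4 of 52 bZIP genes were nearest to a peak, 7.69% (exact Clopper-Pearson 95% interval 2.14 to 18.5, for counting error over genes). Of all 20052 protein-coding genes, 3.66% were. The interval of the bZIP share includes the background, and 3 of the 4 genes had been chosen from this list, so the share is no result about the family. Within 1 kb of a TSS there were 2 bZIP genes, JUNB and TEF, 3.85% against 1.34% of all protein-coding genes. Within 10 kb there were 3, JUNB, TEF and ATF3, against a background of 2.13%. The TEF peak covered chromosome 22 from 41762949 to 41763181 on hg19, with a score of 54 and a width of 233 bp. Its centre lay 272 bp upstream of the TSS of NM_001145398, and it had 0 neighbours within 100 kb. TEF and ATF3 were below the median score, and JUNB and BACH2 far above it. By the best peak per gene, JUNB was at rank 2, BACH2 at 5, TEF at 455 and ATF3 at 582 of the 734 protein-coding genes nearest to a peak. A single peak per gene was the usual case, at 90.2% of these genes.

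Genes that act around AP-1 were read from the same list, and their values are also descriptions. Of 32 kinase and phosphatase genes upstream of AP-1, 5 were nearest to a peak (15.6%, exact interval 5.28 to 32.8), against the 3.66% of all protein-coding genes. The interval lies above that background. The list was written with earlier results of these data known, so no share of it is a result about these genes. A share at any distance also depends on how far apart genes lie, which was not accounted for. Of the 32, 3 had the peak within 1 kb of the TSS (9.38%, against 1.34% of all protein-coding genes), MAPK11 and MAPK8 among them. MAPK11, which encodes the p38 beta kinase, had a score of 115 at 453 bp upstream (chromosome 22, 50709196 to 50709328). MAPK8, the gene for the JUN kinase JNK1, had a score of 17 at 798 bp downstream, in intron 1 (chromosome 10, 49515448 to 49515589). The peaks assigned to the dual-specificity phosphatase genes DUSP4 (score 131) and DUSP10 (score 53) lay 143 and 125 kb from the TSS, in intergenic sequence. The scores in this group thus spanned from near the bottom of the list to well above its median. None came near those of JUNB and BACH2, which had been picked with the scores known.

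Immediate early genes, which growth signals induce without new protein synthesis, had a nearest peak in 5 of 24 cases (20.8%), against 3.66% of all protein-coding genes. JUNB and ATF3, which were chosen from this peak list, are among these 5, so the count is no result about the list. The other 3 genes were KLF2 and KLF4, which encode Krüppel-like factors, and ZFP36, an mRNA decay factor gene. KLF2 had a score of 79 at 5899 bp downstream of its TSS, ZFP36 a score of 60 at 2731 bp upstream, and KLF4 a score of 27 at 673 kb upstream. JUNB was the only one with a peak within 1 kb of the TSS, 4.17% of the 24 against 1.34% of all protein-coding genes. EGR1, MYC, SRF and CCN1 are examples of the 19 genes of the same list that were nearest to none. None of 20 AP-1 target genes, such as MMP1 and IL6, was nearest to a peak (exact upper limit 16.8%, which includes the background of 3.66%). Of 14 target genes of BACH factors and of NRF2, the bZIP activator that competes with them, 1 had a peak (7.14%, exact interval 0.181 to 33.9, which also includes that background), so neither count stands apart from it. The gene was NQO1, a quinone reductase gene, with a score of 74 at 296 bp upstream (chromosome 16, 69760706 to 69760812). JUNB and BACH2 had the highest scores of the 13 listed genes with a peak, and the next was DUSP4 at 131. JUNB and BACH2 had been picked with the scores known, so their place at the top is no result.

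**Figure D4:**
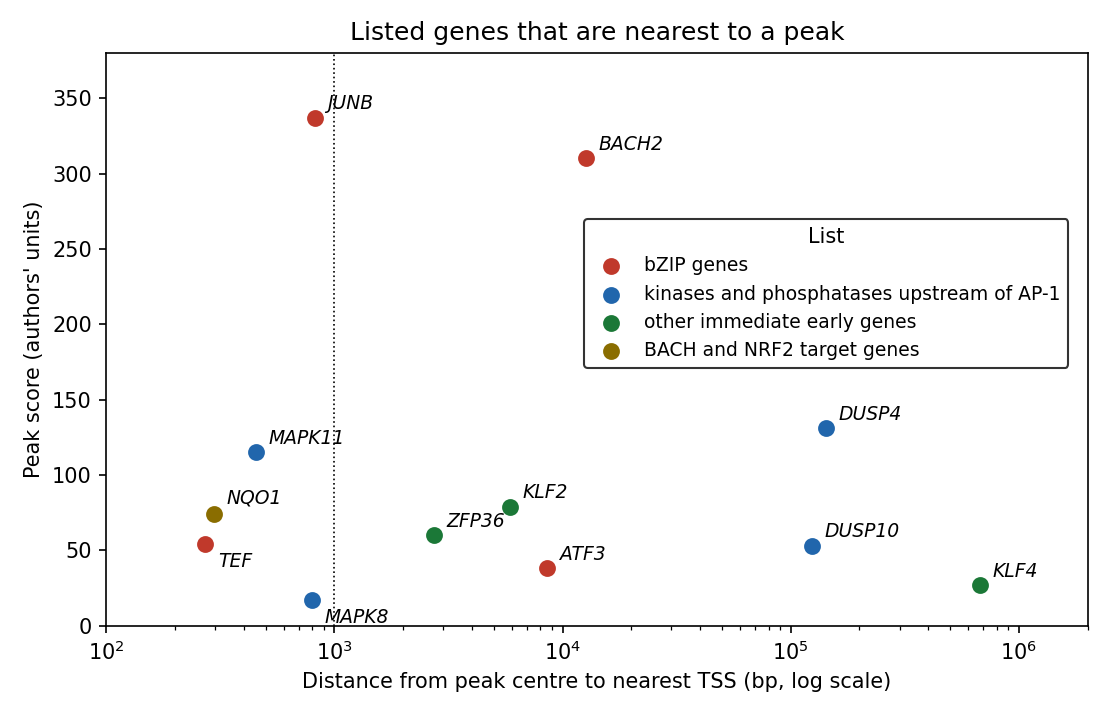
Score (vertical axis, authors' units) against distance from the peak centre to the nearest TSS (horizontal axis, bp, log scale) for 12 of the 13 listed genes that are nearest to a peak, coloured by list; JUNB and ATF3, which are also immediate early genes, are drawn with the bZIP genes. The dotted line marks 1 kb, and JUNB (337) and BACH2 (310) stand above all other points, of which the highest is DUSP4 (131). JUNB and BACH2 had been picked with the scores known.

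The sequence under the peaks is not printed, because no genome of the hg19 build was used here. The proximal promoters of JUNB and BACH2, the pair with the high scores, are shown instead to mark what lies outside their peaks: the peak edge nearest to the TSS was 313 bp downstream at JUNB and 12495 bp downstream at BACH2. Each line gives the 250 bases before the start in RefSeq (GRCh38.p14), from chr19:12791236-12791485 on the plus strand for JUNB and chr6:90296844-90297093 on the minus strand for BACH2. Capitals mark matches to TGACGTCA (CRE), CCAAT and TATAAA on either strand.
JUNB: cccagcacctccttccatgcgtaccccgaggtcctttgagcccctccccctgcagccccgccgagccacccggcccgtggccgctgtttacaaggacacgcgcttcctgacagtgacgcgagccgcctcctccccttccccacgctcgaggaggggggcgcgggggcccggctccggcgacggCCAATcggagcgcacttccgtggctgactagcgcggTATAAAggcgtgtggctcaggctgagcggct
BACH2: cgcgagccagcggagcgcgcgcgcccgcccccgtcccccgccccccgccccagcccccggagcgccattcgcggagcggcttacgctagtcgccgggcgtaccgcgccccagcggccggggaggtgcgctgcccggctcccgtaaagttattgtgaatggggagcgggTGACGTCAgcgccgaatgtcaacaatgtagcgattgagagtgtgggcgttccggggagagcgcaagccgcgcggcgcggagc

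The JUNB promoter held CCAAT from 67 to 63 bases and TATAAA from 31 to 26 bases before the start, on the strand of the gene. The BACH2 promoter held a complete CRE, which reads the same on both strands, from 82 to 75 bases before the start. Of 35116 RefSeq promoter windows of the same length, 1.65% held TGACGTCA, 32.0% held CCAAT and 10.7% held TATAAA. Windows for ATF3 numbered 2, and they held CCAAT on the opposite strand in one and TATAAA in the other, with no CRE. The AP-1 site TGANTCA, in 6.57% of windows, the letters CTGGGCA, known as the core of the ZNF416 motif in the HOMER collection and found in 7.24%, and the CArG box of SRF, found in 1.16%, were searched on both strands. None of these occurred in the promoter windows of JUNB, BACH2 or ATF3. The G and C content was 70.8% at JUNB and 73.6% at BACH2, against 49.2% and 44.8% at the ATF3 windows and a median of 58.0% over all windows. These matches describe the letters of the reference alone, and the start sites of RefSeq were not matched to those of the hg19 annotation. At ATF3 only the 2 windows were searched, and any start of the gene outside them was not.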

How the data were processed

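The data were FLAG ChIP-seq and input libraries of IMR90 cells expressing ZNF416-FLAG, 2 of each, read for 51 bases from both ends. Per the submitters' processing notes, Bowtie2, Picard, MACS2, deepTools and HOMER were used, with no version named. The list is a narrow peak list on hg19 with blacklisted regions removed and annotated by HOMER, per the file headers. The way replicates and input were combined is not given in the sources used here. Scores are the authors' own deposited value per peak, and served for description and ranking inside this list. Positions and distances to the TSS in bp are likewise as deposited.

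Peaks were read with pandas 2.3.3 in Python 3.11.15. Width was end minus start plus 1, and rank 1 is the highest score. Genes were matched by identifier to RefSeq (1140 of 1142 peaks with one), and gene lists to its 20052 protein-coding genes. Intervals are exact Clopper-Pearson 95% intervals (SciPy 1.17.1). No test was run, since the list holds no value per library. The functions for ranks and neighbours were tested on simulated data. The members and the 10 gene lists were chosen with earlier results of these data known. Genes named are the members, all bZIP genes with a peak, up to 6 genes of each other list by score, genes of neighbouring peaks within 100 kb, and peaks adjacent in score. The next peaks beyond 100 kb, the adjacent genes, the exon 1 of 1 peaks and genes named as having no peak fall outside this rule and were chosen after their values were seen. A single gene under this rule is left out of the text and figures. The many peaks that share the scores next to ATF3 are given by number only.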

Additional observations from a re-analysis of the deposited data

How the results depend on the processing

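The count of bZIP genes nearest to a peak was 4 at any distance, 4 within 100 kb and 3 within 10 kb. It moved to 2 within 1 kb of a TSS (JUNB and TEF) and to 2 at or above the median score (JUNB and BACH2). JUNB and BACH2 had been picked with the scores known, so that they remained is no result. Of all protein-coding genes, 3.66% were nearest to a peak at any distance, 2.13% within 10 kb and 1.34% within 1 kb. The shares of all genes within 100 kb and at or above the median score are not given here, so those counts have no background beside them. Of the 3 peaks at JUNB, BACH2 and ATF3, 2 remained at or above the median score, since ATF3 lies below it. JUNB and BACH2 kept ranks 2 and 6 under all 3 alternatives for rank. ATF3 stood at 835 of 1080 on assembled chromosomes and at 874 of 1106 with peaks within 1 kb merged. At the lowest rank among ties it was 1115 of 1386. These lists differ in length, so the ranks of ATF3 cannot be set side by side as a shift. The number of neighbouring peaks was 1, 0 and 0 with windows of 50 and 250 kb and with 100 kb from edge to edge. No paired analysis was possible because the list holds no value per library, and for the same reason no replicate could be left out. The unknown depth limits what the absence of a peak at other bZIP genes can show, since a weaker signal there was not detectable in a list of called peaks.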
